A study of Drosophila melanogaster and Drosophila simulans and Drosophila yakuba with 12 samples.

Results

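The mir-12, mir-283 and mir-304 hairpins are 3 microRNA genes that lie next to each other on the X chromosome of fruit flies. They were taken by name, with the species prefix dropped. These are 3 of the 176 D. melanogaster hairpins, 3 of the 136 D. simulans hairpins and 2 of the 80 D. yakuba hairpins in the alignment texts. No D. yakuba mir-12 hairpin was analysed here, so miR-12 reads of D. yakuba libraries were read on the D. melanogaster hairpins. Each hairpin has a 5p arm and a 3p arm, which gives 6 arms. All 6 are accounted for.

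The study sequenced small RNA from whole bodies, 10 RNA samples in 8 groups, which gave 12 libraries. White prepupae were taken within 1 h of puparium formation, and wandering larvae with a dark blue gut 18 h before it. The D. simulans males (strain 14021-0251.167) and the D. yakuba males (strain 14021-0261.00) were each sampled once as prepupae and once as larvae, and the prepupal RNA of each species went into 2 separate library preparations. The D. melanogaster animals (strain Oregon-R) were 1 sample of female prepupae, 1 of female larvae, 2 of male prepupae and 2 of male larvae. All strains are given without a transgene or treatment. A 4-nt index sat between the 5′ adaptor and the insert, and 4 libraries with different indexes were pooled before the second ligation, in pools named SDY1, SDY3 and SDY4. Both male larval libraries of D. melanogaster carried the index ACTG (called e in the plots), both male prepupal libraries carried TGAC (a), the female prepupal library carried GACT (b) and the female larval library carried CTGA (c). In D. simulans the first prepupal library and the larval library carried GACT and the second prepupal library ACTG. In D. yakuba the first prepupal library and the larval library carried CGAT (d) and the second prepupal library TGAC. Stage and index therefore cannot be told apart in D. melanogaster. Each library held 1423 to 48209 reads on arms of its own species' hairpins. All intervals below are exact 95% Clopper-Pearson intervals that cover counting error only, since no molecular identifiers were used in the counts. In whole animals, fewer cells that make a miRNA and less of it per cell cannot be told apart.

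As background, a miRNA hairpin is cut out of a longer primary transcript by Drosha and then by Dicer into a short duplex. One strand is usually kept by an Argonaute protein, and the seed, bases 2 to 8 from its 5′ end, leads that protein to messenger RNAs. Hairpins that lie close together on one strand are often cut from a single primary transcript. At puparium formation a pulse of the steroid hormone ecdysone starts metamorphosis.

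In the deposited D. melanogaster coordinates, whose genome build is not given in the sources used here, mir-283 lay at chrX:15401989-15402088, mir-304 at chrX:15402992-15403079 and mir-12 at chrX:15403506-15403579, all on the plus strand. The 3 hairpins spanned 1591 bases, with 903 bases between mir-283 and mir-304 and 426 bases between mir-304 and mir-12. In D. simulans the order was the same on unplaced X sequence, with gaps of 888 and 432 bases. In D. yakuba the gap between mir-283 and mir-304 was 1644 bases. In the BDGP6 annotation, a different build, the genes are FBgn0262426 (mir-283, chrX:15507956-15508055), FBgn0262409 (mir-304, chrX:15508959-15509046) and FBgn0262395 (mir-12, chrX:15509473-15509546). All 3 sit in 1 intron (chrX:15507594-15509717) of Gmap, which encodes a Golgi microtubule-associated protein, on the same strand as that gene. The intron is shared by all 4 annotated Gmap transcripts, and none of the hairpins overlaps an exon.

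**Figure D1:**
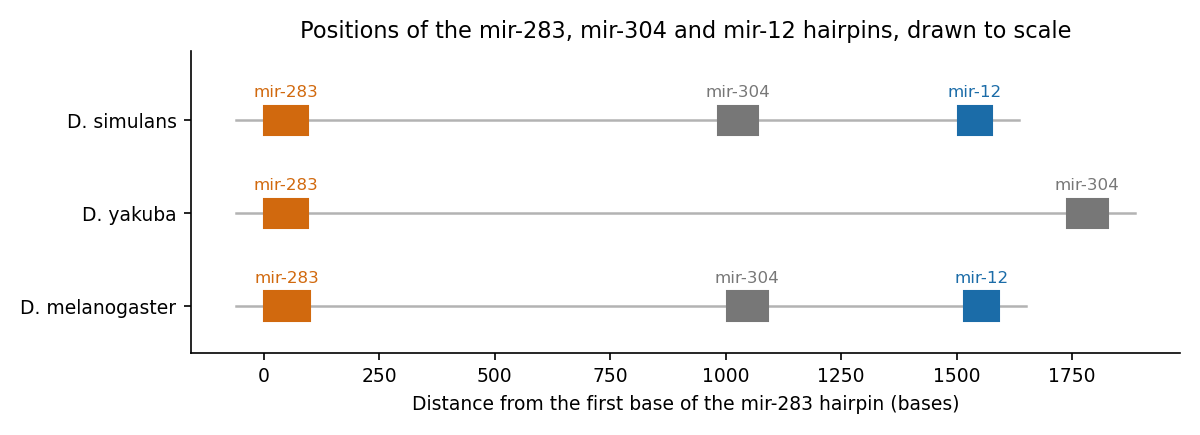
Positions of the hairpins in the deposited coordinates, as distance in bases from the first base of the mir-283 hairpin, with each box drawn to the length of its hairpin. The order is the same in D. simulans and D. melanogaster, and the gap between mir-283 and mir-304 is 1644 bases in D. yakuba, against 903 in D. melanogaster.

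The annotated mature 5p sequences are shown first, because the seed is what a miRNA is grouped by. Capitals mark the seed, bases 2 to 8, and the sequences are those of the deposited alignment texts.
miR-12-5p: uGAGUAUUacaucagguacuggu
miR-283-5p: uAAAUAUCagcugguaauucu
miR-304-5p: uAAUCUCAauuuguaaaugugag
The 3 seeds differ, so the neighbours belong to 3 seed groups. The miR-12 seed was shared with 1 other D. melanogaster hairpin, mir-960, and the annotated seeds of miR-283 and miR-304 with 0. Each mature 5p sequence was identical in every species for which a hairpin was analysed.

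The hairpins are printed with the mature 5p sequence in capitals, to show that the bases that differ between species lie outside it. The D. simulans and D. yakuba mir-304 hairpins were the same as each other.
mir-12, D. simulans: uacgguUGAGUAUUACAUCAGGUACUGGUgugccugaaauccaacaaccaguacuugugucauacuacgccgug
mir-12, D. melanogaster: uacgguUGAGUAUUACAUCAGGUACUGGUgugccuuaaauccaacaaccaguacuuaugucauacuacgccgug
mir-304, D. simulans and D. yakuba: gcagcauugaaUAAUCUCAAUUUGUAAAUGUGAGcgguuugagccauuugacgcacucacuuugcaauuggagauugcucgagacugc
mir-304, D. melanogaster: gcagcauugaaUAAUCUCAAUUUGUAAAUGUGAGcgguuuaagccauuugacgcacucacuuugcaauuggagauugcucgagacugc
mir-283, D. simulans and D. yakuba: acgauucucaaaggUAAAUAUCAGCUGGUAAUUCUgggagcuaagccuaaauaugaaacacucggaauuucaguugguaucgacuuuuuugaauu
Counted from 1 at the 5′ end of the D. melanogaster hairpin, with the D. melanogaster base first, mir-12 of D. simulans differed by U36G and A57G. The mir-304 hairpin of both other species differed by A41G. The mir-283 hairpins of D. simulans and D. yakuba held no substitution, and their deposited sequence began 5 bases later than that of D. melanogaster.

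Nearly all reads of the cluster came from 2 of its 6 arms. Over the 12 libraries miR-12-5p gave 790 reads and miR-283-5p 517 reads, and each was found in every library. The mir-12 hairpin gave 99.4% of its reads from the 5p arm (790 of 795, interval 98.5% to 99.8%), and mir-283 likewise 99.4% (517 of 520, 98.3% to 99.9%). Their 3p arms gave 5 and 3 reads. The mir-304 hairpin gave 3 reads in all: 1 of the 5p arm in a D. simulans prepupal library, 1 of the 5p arm in the D. yakuba larval library and 1 of the 3p arm in a D. melanogaster male prepupal library. miR-304 thus lay between 2 well-read neighbours and was itself hardly read. In the deepest library, of D. melanogaster female prepupae, its 0 reads allow a share of up to 0.00622%, taken at 3 counts. None of these 4 sparse arms passed the filter on low counts in any comparison.

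The reads place the 5′ end of miR-283-5p 1 base away from its annotated start. Of 517 reads, 514 began 1 base further 3′ (99.4%, interval 98.3% to 99.9%), and 3 began at the annotated base. The shifted start held in 106 of 108 D. simulans reads, in 178 of 178 D. yakuba reads and in 230 of 231 D. melanogaster reads. With this start the seed moves by 1 base, and 0 other D. melanogaster hairpins share the moved seed. The most read sequences of the arm are printed to show this start and the 3′ ends described further on, with the seed of the read in capitals.
miR-283-5p as read, D. simulans and D. yakuba: aAAUAUCAgcugguaauuc
miR-283-5p as read, D. melanogaster: aAAUAUCAgcugguaauucuggg
miR-12-5p as read, D. simulans and D. yakuba: uGAGUAUUacaucagguacu
miR-12-5p as read, D. melanogaster: uGAGUAUUacaucagguacuggu
For miR-12-5p, 777 of 790 reads began at the annotated base (98.4%, interval 97.2% to 99.1%). Here the copies of 1 miRNA were counted as separate arms. Among the 57 arms with an annotated start and at least 50 reads, the most used start was not the annotated one in 5 (8.77%), of which miR-283-5p was 1. The others were miR-33-5p, miR-263a-5p, miR-282-5p and miR-284-3p, whose starts lay 2, 3, 4 and 4 bases further 3′.

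The levels of the 2 abundant neighbours did not follow each other. miR-12-5p spanned a wide range of shares of the library's miRNA reads. It held 0.166% and 0.0983% in the technical libraries of D. simulans prepupae, against 0.0840% in larvae (39, 5 and 4 reads). In D. yakuba it held 0.347% and 0.200% of the reads on D. melanogaster hairpins in prepupae, against 0.539% in larvae (78, 3 and 21 reads). In D. melanogaster females it held 0.214% in prepupae, against 5.10% in larvae (103 and 241 reads). In D. melanogaster males it held 1.58% and 0.211% in prepupae, against 0.339% and 0.0989% in larvae (168, 19, 99 and 10 reads). The highest share was thus that of the female larvae, where miR-12-5p ranked 8 among 93 arms with reads, followed by the male prepupae of pool SDY1. The male stages overlapped, since the second prepupal library lay below the first larval library.

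miR-283-5p was lowest in the male prepupae of pool SDY1, where miR-12-5p had its second highest share. In D. simulans it held 0.302% and 0.433% in prepupae, against 0.315% in larvae (71, 22 and 15 reads). In D. yakuba it held 0.639% and 0.141% in prepupae, against 0.992% in larvae (139, 2 and 37 reads). In D. melanogaster females it held 0.0788% in prepupae, against 0.127% in larvae (38 and 6 reads). In D. melanogaster males it held 0.0376% and 0.133% in prepupae, against 0.459% and 0.366% in larvae (4, 12, 134 and 37 reads). Both male prepupal libraries lay below both male larval libraries, the lowest of them on 4 reads. With 2 libraries in each group such an order can arise by chance. How many other arms showed it was not counted. The D. yakuba larvae had the highest share of all, and the male prepupae of D. melanogaster in pool SDY1 the lowest.

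**Figure D2:**
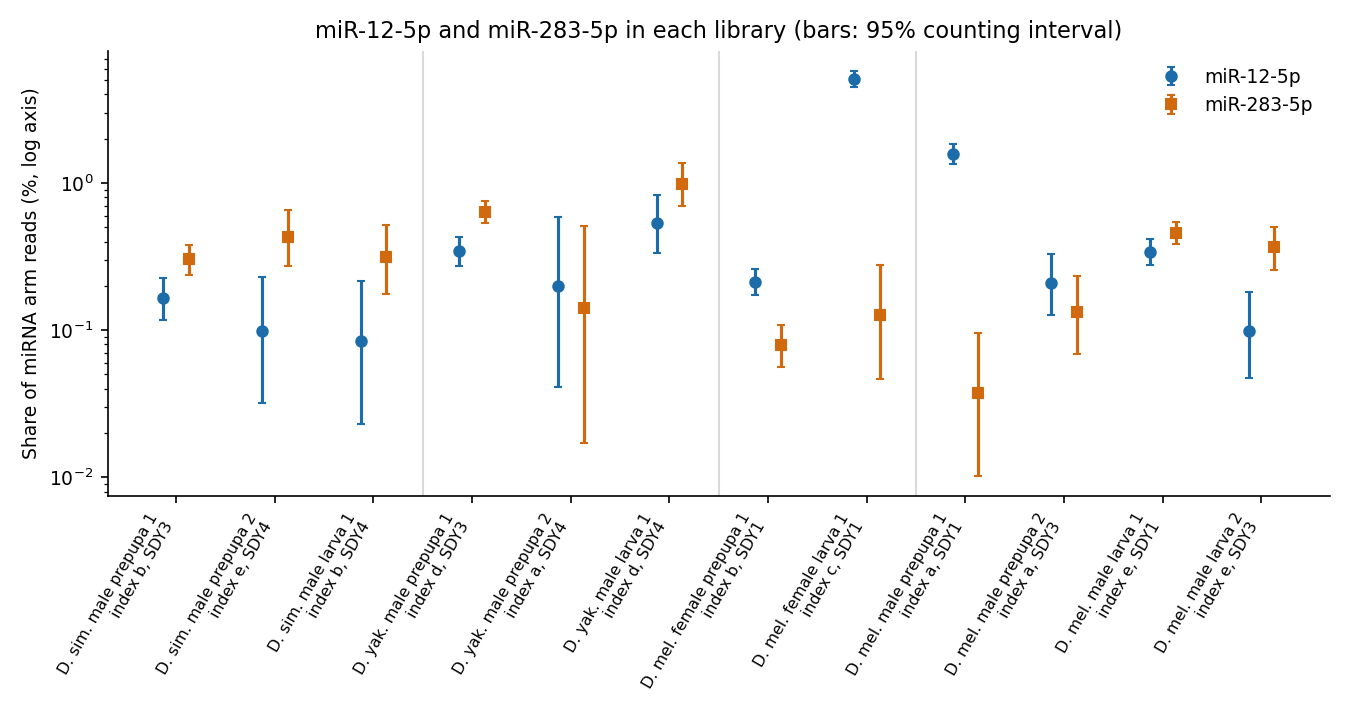
Share of miRNA arm reads (percent, log axis) held by miR-12-5p and miR-283-5p in each of the 12 libraries, with 95% counting intervals. Letters a to e are the 4-nt library indexes. miR-12-5p is highest in the female larvae of D. melanogaster (5.10%), and miR-283-5p in the larvae of D. yakuba (0.992%).

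The ratio of the neighbours does not depend on the library total, and it varied from 0.227 to 42 miR-12-5p reads per miR-283-5p read. In D. simulans it was 0.549 and 0.227 in prepupae, against 0.267 in larvae. In D. yakuba it was 0.561 and 1.5 in prepupae, against 0.568 in larvae. In D. melanogaster it was 2.71 in female prepupae, against 40.2 in female larvae, and 42 and 1.58 in male prepupae, against 0.739 and 0.270 in male larvae. miR-12-5p was thus the more read neighbour in 4 of 6 D. melanogaster libraries, in 0 of 3 D. simulans libraries and in 1 of 3 D. yakuba libraries (3 against 2 reads). Within pool SDY1 the ratio of D. melanogaster males was 56.8 times as high in prepupae as in larvae (counting interval 20.5 to 216), and within pool SDY3 it was 5.86 times as high (1.93 to 18.1). In females it was 0.0675 times that of larvae (0.0228 to 0.169).

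The ratio also moved with the index of the library. It was above 1 in the 3 libraries with TGAC, which came from D. yakuba and D. melanogaster prepupae (1.5 to 42), and below 1 in the 3 libraries with ACTG, from D. simulans prepupae and D. melanogaster larvae (0.227 to 0.739). With TGAC, the counting interval included 1 in the second D. melanogaster male prepupal library (0.730 to 3.58) and in the D. yakuba library (0.172 to 18.0). With GACT the ratio ran from 0.267 to 2.71. Between the technical libraries of 1 D. simulans RNA the ratio with ACTG was 0.414 times that with GACT (0.114 to 1.25). Between those of 1 D. yakuba RNA the ratio with TGAC was 2.67 times that with CGAT (0.298 to 32.5), on 3 and 2 reads with TGAC. Both intervals include 1, and pool changed with index in each pair. Libraries of the same index can be set side by side across stages in the other 2 species. With GACT, the D. simulans ratio in prepupae was 2.06 times that in larvae (0.597 to 9.07), and with CGAT the D. yakuba ratio in prepupae was 0.989 times that in larvae (0.522 to 1.91). By pool, the ratio was above 1 in 3 of 4 libraries of SDY1, 1 of 4 of SDY3 and 1 of 4 of SDY4. The part of the index and of the pool in the difference seen in D. melanogaster was not tested.

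**Figure D3:**
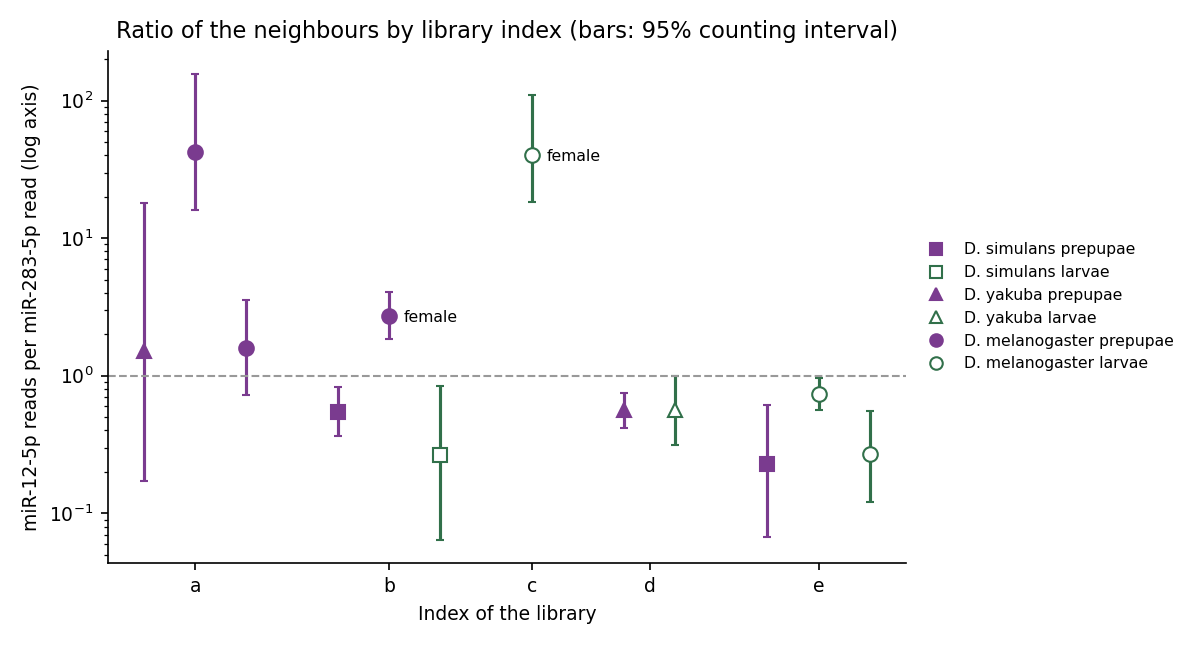
Reads of miR-12-5p per read of miR-283-5p (log axis) in each library, arranged by library index, with 95% counting intervals; filled symbols are prepupae and open symbols larvae. Letters a to e are the 4-nt library indexes. The dashed line marks equal reads, and the 3 libraries of index a lie above it while the 3 of index e lie below it.

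Over the 10 RNA samples, the mean log2 ratio of miR-12-5p to miR-283-5p (pseudocount 0.5) was 1.09 ± 2.53 in prepupae and 0.07 ± 2.94 in larvae (SD, n = 5 each). The difference of 1.01 was smaller than either SD, but the SDs also hold the differences between species and sexes. An exact two-sided permutation test of stage within species and sex gave p = 0.542 (smallest possible p 0.0417). Without the male prepupae of pool SDY1 the difference was −0.021, and without the female larvae or the female prepupae, which leaves the males, it was 2.21 (exact permutation p = 0.0833, which is the smallest that 24 arrangements allow).

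The first stage comparison asked which arms differ between prepupae and larvae of D. melanogaster males. With edgeR over all measured arms, miR-12-5p had a log2 difference of 2.02 ± 1.45 (SE, n = 2 and 2) and miR-283-5p one of −1.89 ± 1.32, both with an adjusted p of 0.486. The neighbours thus pointed in opposite directions, and neither passed. Of 70 arms tested, 8.57% passed, and 0 of the 2 tested cluster arms did. DESeq2 passed 7.14%, also without them. The median over all 70 arms was 0.12. The libraries of replicate 1 came from pool SDY1 and those of replicate 2 from pool SDY3. With the pool as a replicate block, miR-12-5p rose by 1.95 ± 0.58 (edgeR adjusted p = 0.00609) and miR-283-5p fell by 2.12 ± 0.80 (edgeR adjusted p = 0.0326), in both of the 2 pairs. That fit leaves 1 residual degree of freedom and called 34.3% of the arms, 24 of 70, so passing it was common. Without male prepupa replicate 1 the differences without the block were 0.47 ± 2.18 for miR-12-5p and −1.15 ± 1.53 for miR-283-5p.

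Over both sexes of D. melanogaster the stage difference was smaller. miR-12-5p had 0.63 ± 1.55 (SE, n = 3 and 3, edgeR adjusted p = 0.923) and miR-283-5p −1.40 ± 1.28 (edgeR adjusted p = 0.807). Of 48 arms 4.17% passed in edgeR, 10.4% in DESeq2 and 2.08% in edgeR with the replicate block, and 0 of the 2 cluster arms in each. The direction for miR-12-5p turned without male larva replicate 1 (−0.26), without male larva replicate 2 (−0.96) and without male prepupa replicate 1 (−1.01).

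A stage by sex term asked whether the stage difference itself differs between females and males of D. melanogaster, with a single female sample per stage. For miR-12-5p this term, the log2 difference in females minus that in males, was −5.90 ± 2.67 (edgeR adjusted p = 0.336). In shares, prepupae held 0.0419 times the share of larvae in females (counting interval 0.0329 to 0.0529), against 4.66 times (3.61 to 6.03) and 2.13 times (0.942 to 5.13) in the 2 male pairs. For miR-283-5p the term was 1.89 ± 2.27 (edgeR adjusted p = 0.664), and the prepupal share was below the larval one in all 3 pairs, at 0.620 times (0.260 to 1.80) in females and at 0.0819 times (0.0220 to 0.215) and 0.363 times (0.173 to 0.713) in males. Of 70 arms 1.43% passed in edgeR, and 0 of the 2 cluster arms. DESeq2 passed 2.86%, 2 arms, of which miR-12-5p was 1 (−6.54 ± 1.95, DESeq2 adjusted p = 0.0273). Over the alternatives run for miR-12-5p the adjusted p lay between 0.0273 and 0.847, and the term between −7.30 and −4.70. The female larval library, with the highest share of miR-12-5p, was the only library with the index CTGA. Its part in the term could not be tested, because leaving out either female library removes the term.

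Sex was compared over both stages of D. melanogaster. miR-12-5p had 2.46 ± 1.60 (female minus male, SE, n = 2 and 4, edgeR adjusted p = 0.638) and miR-283-5p −0.86 ± 1.42 (edgeR adjusted p = 0.869). Of 58 arms 1.72% passed, in edgeR and in DESeq2, and 0 of the 2 cluster arms. The direction rested on the female larvae: without them miR-12-5p had −1.63 ± 1.64 and miR-283-5p 0.26 ± 1.36. Within pool SDY1, the miR-12-5p share of females was 0.135 times that of males among prepupae (counting interval 0.105 to 0.174) and 15.04 times that of males among larvae (11.9 to 19.2). For miR-283-5p these were 2.09 times (0.754 to 8.08) and 0.277 times (0.0997 to 0.618). At both stages the neighbours thus pointed in opposite directions between the sexes, although the interval of miR-283-5p in prepupae includes 1. In a fit of the 4 libraries of pool SDY1 alone, miR-12-5p had 0.60 ± 2.77 and miR-283-5p −0.35 ± 1.98.

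Across the males of 3 species, miR-283-5p had a stage difference of −1.36 ± 0.71 (prepupa minus larva, SE, n = 4 and 4, edgeR adjusted p = 0.330). Of 35 arms 2.86% passed in edgeR and 5.71% in DESeq2, and the 1 cluster arm tested did not. The median over all arms was −0.30. On the D. melanogaster hairpins, where D. yakuba miR-12 reads could be counted, miR-12-5p had 1.19 ± 0.81 (edgeR adjusted p = 0.467). There 2.27% of 44 arms passed in edgeR and 6.82% in DESeq2, and 0 of the 2 cluster arms. Without D. melanogaster male prepupa replicate 1, miR-12-5p had −0.14 ± 0.71. Between libraries of the same index, GACT in D. simulans and CGAT in D. yakuba, miR-283-5p had −0.40 ± 0.29 (n = 2 and 2, edgeR adjusted p = 0.478) and miR-12-5p 0.19 ± 0.35 (edgeR adjusted p = 0.784). In shares, the D. simulans prepupae held 1.98 times the larval miR-12-5p (0.713 to 7.61) and 0.959 times the larval miR-283-5p (0.544 to 1.80), and the D. yakuba prepupae 0.644 times the larval level of each (0.394 to 1.10 and 0.446 to 0.953). Stage and pool cannot be told apart in these pairs.

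No term for stage by species passed for either arm. Relative to D. melanogaster, the stage difference of miR-283-5p was higher by 2.03 ± 1.95 in D. simulans and by 1.26 ± 1.91 in D. yakuba (joint edgeR adjusted p = 1). For miR-12-5p on the D. melanogaster hairpins the terms were −1.33 ± 2.28 and −2.22 ± 2.16 (joint edgeR adjusted p = 1). In this joint test 0 of 51 arms passed (2 had an unadjusted p under 0.05, and DESeq2 passed 0). On the D. melanogaster hairpins 0 of 71 did, where 3 had an unadjusted p under 0.05 and DESeq2 passed 1.41%, 1 arm outside the cluster.

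**Figure D4:**
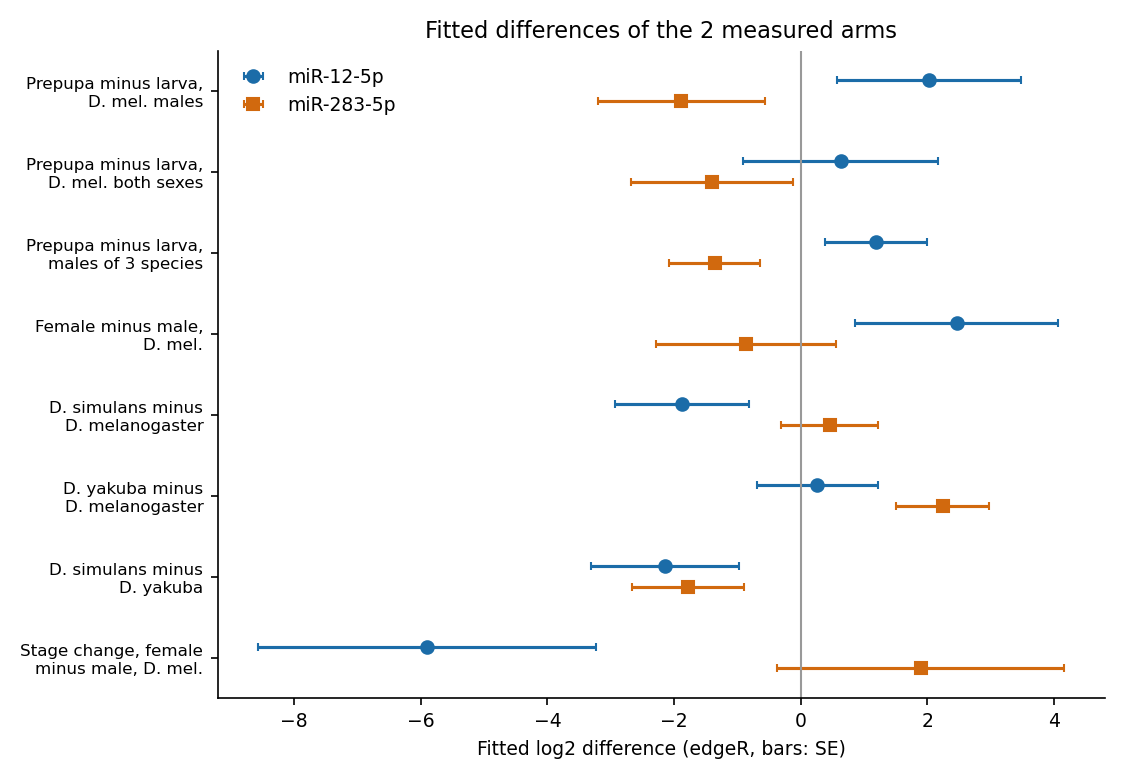
Fitted log2 differences of miR-12-5p and miR-283-5p in 8 comparisons (edgeR, bars are SE), with miR-12-5p taken from the fits on the D. melanogaster hairpins where several species enter. In those comparisons miR-283-5p is from the fits on each species' own hairpins, so the 2 arms come from different fits. The arms point in opposite directions in the 3 stage comparisons, at 2.02 and −1.89 in D. melanogaster males, and none of the plotted differences passed the adjusted threshold of 0.05 in these edgeR fits, which have no replicate block.

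Species were compared over the male samples with a term for stage. Of its 3 species differences, miR-283-5p had the largest in D. yakuba against D. melanogaster, at 2.24 ± 0.73 (SE, n = 2 and 4, edgeR adjusted p = 0.161), where the median of all 44 arms was −0.28. Its share was 0.639%, 0.141% and 0.992% in the D. yakuba libraries, against 0.0376% to 0.459% in the 4 male D. melanogaster libraries. The overlap of these shares rested on the 0.141%, from 2 reads in the second technical library of the prepupal RNA. With technical libraries summed as in the fit, D. yakuba held scaled counts (CPM) of 8376 and 9652 on the D. melanogaster hairpins. The 4 male D. melanogaster samples held 330 to 3942 there, so the values by RNA sample did not overlap. In edgeR 0 of 44 arms passed, 9 had an unadjusted p under 0.05, and DESeq2 passed 9.09%, 4 arms, of which miR-283-5p was 1 (2.41 ± 0.82, DESeq2 adjusted p = 0.0354). Over the alternatives run for this arm the adjusted p lay between 0.0354 and 0.675 and the difference between 1.39 and 2.69. miR-12-5p had 0.26 ± 0.95 in D. yakuba against D. melanogaster (edgeR adjusted p = 0.835, on the D. melanogaster hairpins, where 0 of 62 arms passed, 11 had an unadjusted p under 0.05, and DESeq2 passed 8.06%, without either cluster arm). On the same hairpins miR-283-5p had 2.10 ± 0.93 (edgeR adjusted p = 0.212).

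In D. simulans against D. melanogaster, miR-283-5p had 0.46 ± 0.77 (edgeR adjusted p = 0.637), where the median of all arms was −0.85 and 6.82% of 44 arms passed (13.6% in DESeq2). Of the arms that passed in edgeR, miR-305-5p (−10.55) and miR-281-5p (−6.75) had 0 and 3 reads on the D. simulans hairpins in the first D. simulans prepupal library. On the D. melanogaster hairpins that library held 201 and 202. There miR-283-5p had 0.74 ± 0.96 (edgeR adjusted p = 0.664). On each species' own hairpins and without D. melanogaster male prepupa replicate 1, miR-283-5p had −0.0078. miR-12-5p had −1.88 ± 1.06 (edgeR adjusted p = 0.293, on the D. melanogaster hairpins, median −0.53, 1.61% of 62 arms passed, and 11.3% in DESeq2). In D. simulans against D. yakuba both neighbours were on the lower side. On each species' own hairpins miR-283-5p had −1.79 ± 0.89 (edgeR adjusted p = 0.318). There 9.09% of 44 arms passed, miR-305-5p and miR-281-5p among them. On the D. melanogaster hairpins miR-283-5p had −1.36 ± 1.07 (edgeR adjusted p = 0.529) and miR-12-5p −2.14 ± 1.17 (edgeR adjusted p = 0.303). In that fit 0 of 62 arms passed in edgeR, 10 had an unadjusted p under 0.05, and DESeq2 passed 1.61%. No cluster arm passed in edgeR in any of these species comparisons. Pool SDY1 held D. melanogaster alone, SDY4 held D. simulans and D. yakuba, and SDY3 held all 3 species, and the part of the pool in the species differences was not tested.

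The length of the reads of both arms varied between species, while nearly all kept the starts given above. Reads of at most 20 nt made up 62.5% of miR-12-5p reads in D. simulans (30 of 48, interval 47.4% to 76.0%), 94.1% in D. yakuba (96 of 102, 87.6% to 97.8%) and 8.59% in D. melanogaster (55 of 640, 6.54% to 11.04%). For miR-283-5p the shares were 86.1% in D. simulans (93 of 108, 78.1% to 92.0%), 97.2% in D. yakuba (173 of 178, 93.6% to 99.1%) and 37.7% in D. melanogaster (87 of 231, 31.4% to 44.3%). The most read form of miR-12-5p had 20 nt in D. simulans and D. yakuba and 23 nt in D. melanogaster, and that of miR-283-5p had 19 nt, 19 nt and 23 nt. The 3 last bases of the D. melanogaster form of miR-283-5p lie beyond the annotated 3′ end. The D. yakuba miR-12-5p reads were those on the D. melanogaster hairpin. Longer reads with a base that differs in D. yakuba may have been missed.

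Short forms were less common over the other arms as a whole, although a few arms had them too. Over all other arms, reads of at most 20 nt made up 2.34% to 10.0% of a library. Among arms with at least 50 reads, miR-283-5p had the highest short share of 35 arms in D. simulans and of 28 in D. yakuba, and the second highest of 67 in D. melanogaster, where the median of the other arms was 3.16%, 5.05% and 2.80%. Of the other arms, miR-92b-3p had the highest short share in D. simulans (60.2%) and in D. yakuba (93.2%), and miR-9b-5p in D. melanogaster (59.7%, above miR-283-5p). In D. yakuba miR-12-5p (94.1%) ranked 2, after miR-283-5p and above miR-92b-3p, and in D. melanogaster miR-12-5p ranked 12.

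Short reads moved with the pool and the index as well as with the species, so the shares by species given above mix all 3. In D. melanogaster, the libraries of pool SDY3 had 31.03% short miR-12-5p reads (9 of 29, 15.3% to 50.8%), against 7.53% in pool SDY1 (46 of 611, 5.56% to 9.91%), and 73.5% short miR-283-5p reads (36 of 49, 58.9% to 85.1%), against 28.0% in pool SDY1 (51 of 182, 21.6% to 35.1%). Within pool SDY3, short reads made up 59.0% of miR-12-5p in D. simulans (42.1% to 74.4%) and 98.7% in D. yakuba (93.1% to 99.97%), each above the 31.03% of D. melanogaster. For miR-283-5p they made up 95.8% in D. simulans (88.1% to 99.1%) and 97.1% in D. yakuba (92.8% to 99.2%), against the 73.5% of D. melanogaster. These are 1 library each of D. simulans and D. yakuba, and 2 and 4 libraries of D. melanogaster in pools SDY3 and SDY1, and no test over samples was made. Within pool SDY3 species and index cannot be told apart.

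Pool SDY4 held no D. melanogaster, so that order of species could not be checked within it. There short reads made up 67.6% of miR-283-5p in D. simulans (25 of 37, 50.2% to 82.0%) and 97.4% in D. yakuba (38 of 39, 86.5% to 99.9%). The D. simulans interval overlapped that of D. melanogaster in pool SDY3 (73.5%, 58.9% to 85.1%). The 67.6% joins 2 libraries, the prepupae with ACTG at 50% and the larvae with GACT at 93.3% (14 of 15). The technical libraries of 1 D. simulans RNA differed, with 95.8% short miR-283-5p reads in the library with GACT in pool SDY3 (68 of 71) and 50% in the library with ACTG in pool SDY4 (11 of 22, 28.2% to 71.8%). In D. yakuba the library with TGAC had 0 short reads among its 3 miR-12-5p reads, while the prepupal library with CGAT had 77 of 78. Over all species, the short share of miR-12-5p was highest with CGAT, which only D. yakuba carried, at 97.0% (96 of 99). It was 26.03% with GACT (38 of 146), 17.5% with ACTG (20 of 114), 7.47% with CTGA (18 of 241) and 4.74% with TGAC (9 of 190). The part of species, index and pool in the read lengths was not tested.

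**Figure D5:**
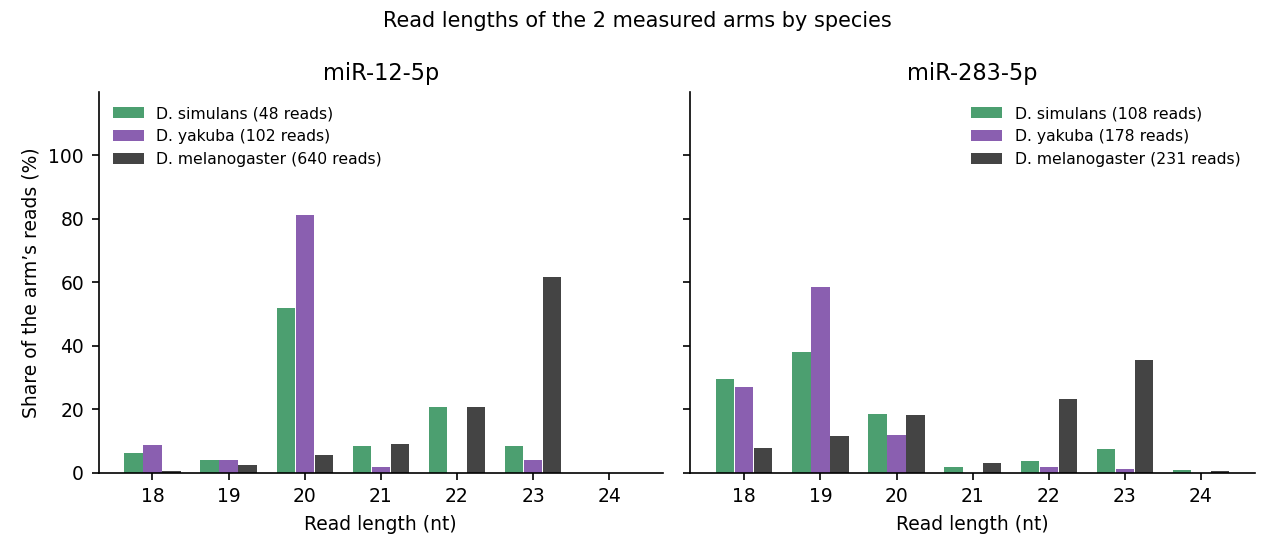
Distribution of read lengths (nt) of miR-12-5p and miR-283-5p as the share of the arm's reads (percent) in each species, summed over its libraries. The D. yakuba miR-12-5p reads are those on the D. melanogaster hairpin. The 20-nt form holds 81.4% of miR-12-5p reads in D. yakuba, and the 23-nt form 61.6% in D. melanogaster.

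The neighbours were not most like each other in their levels. Over the 10 RNA samples, with log2(CPM + 1) on the D. melanogaster hairpins, Pearson's r between miR-12-5p and miR-283-5p was −0.37 (Spearman's rho −0.13), which placed miR-283-5p at rank 34 of 49 arms by likeness to miR-12-5p. The arms most like miR-12-5p were miR-305-5p (r = 0.86, rho 0.83) and miR-276a-5p with miR-276b-5p, whose reads are shared evenly (r = 0.82, rho 0.83). Within the same set, those most like miR-283-5p were miR-1-3p, the muscle miRNA of animals (r = 0.78, rho 0.59), miR-315-5p, known in flies for activating Wingless signalling (r = 0.52, rho 0.35), and miR-8-5p (r = 0.44, rho 0.49). These are descriptions over samples that share indexes and pools, with no test.

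Few of the other X-linked hairpins had enough reads to be tested, although some of their arms were read more than those of the cluster: over the 12 libraries miR-31b-5p had 6333 reads, miR-970-3p 957 and miR-13b-3p 900. The deposited D. melanogaster coordinates place 30 further hairpins on the X chromosome, and arms of these passed the filter in 4 cases in the comparison of stage in males, 3 in stage over both sexes and in sex, and 2 across species, with 0 passing the test in any of them. In D. melanogaster males miR-984-5p had a stage difference of 2.504 ± 2.20, miR-970-3p 1.18 ± 1.41, miR-13b-3p −1.08 ± 1.40 and miR-31b-5p 0.10 ± 1.19. For female minus male, miR-13b-3p had −0.47 ± 1.21, miR-31b-5p −0.40 ± 1.18 and miR-970-3p 0.38 ± 1.27. The X-linked list had a median of 0.64 for stage in males, against 0.12 over all arms tested, and of −0.40 for sex, against 0.06 over all arms tested. miR-13b also has a copy on another chromosome, whose reads cannot be told apart.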

How the data were processed

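Per the labels' protocols, enriched small RNA of whole animals was size-selected, ligated to indexed adaptors, pooled and sequenced. Bowtie 0.12.5 is named in the submitters' processing notes, and the hairpins are those of miRBase release 15, per the file headers. The deposited summary table holds expected counts, in which a read is divided among its loci, and the deposited alignment texts hold whole-number counts of reads for each distinct sequence. Neither is normalised by the authors. Genome builds were not given in the sources used here. A further 8 columns of the summary table, for 4 libraries outside this series, were not read.

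Reads of the alignment texts were summed per mature arm (338, 260 and 140 arms in the 3 species, 124 shared). A read listed for several miRNAs was divided evenly among them, and the sums were rounded to whole counts for the tests. All 102 cells of the summary table for the cluster lay within 0.5 reads of these sums. Shares are percent of the library's summed reads.

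After TMM scaling and filterByExpr, grouped by the factor compared, arms were tested with the quasi-likelihood F test of edgeR 4.0.16 in R 4.3.3, adjusted over all arms by Benjamini-Hochberg with a threshold of 0.05. Log2 differences carry the SE from the test statistic. The models held 4 group means (stage in D. melanogaster males, stage by sex), stage and sex, or species and stage over 8 male RNA samples, with technical libraries of 1 RNA summed. A joint test covered stage by species. The labels say only that the RNA samples differ, so p-values measure no more than the spread between them, which may be technical. The ratio of neighbours was tested with exact permutation over 48 arrangements (SciPy 1.17.1), and intervals are exact at the 95% level, with a floor of 3 counts at 0. Fits were tested on simulated data.

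In D. melanogaster males the replicate number goes with the pool, per the labels. Same-pool deviations of larvae and prepupae had an r of 0.60 over 70 arms, on 2 pairs. The replicate block was therefore run as an alternative and its value is given where it changes a call.

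The alternatives were RLE scaling, DESeq2 1.42.0, no filter except 1 read, leaving out each library or the 3 most read arms, the summary counts, the D. melanogaster hairpins for all libraries, the replicate block, single pools, same-index libraries, another pseudocount and single technical libraries. Repeating these for miR-12-5p on the D. melanogaster hairpins was chosen after seeing the data. The cluster arms and the X-linked list were chosen with earlier results of these data known. All arms of the 3 hairpins are named, the 3 arms most like each abundant neighbour among arms shared by the 3 species with at least 100 reads, and at most 4 X-linked arms with the smallest p in stage and sex comparisons.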

Additional observations from a re-analysis of the deposited data

Results flagged for a closer look

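In D. melanogaster the ratio of miR-12-5p to miR-283-5p moved one way between the stages in males and the other way in females. It was 56.8 times as high in prepupae as in larvae in the male pair of pool SDY1, 5.86 times in the male pair of pool SDY3 and 0.0675 times in the female pair. With 1 female sample per stage and a different index in each of the 4 groups, the difference of these ratios between the sexes was not tested. No group holds 4 RNA samples, so that single samples were not screened for standing apart.

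The mir-12 hairpin also had 21 reads with 1 added base that the hairpin does not hold, 19 with U and 2 with A, which stand outside the arm counts and above the 3 counts that a count of 0 allows. Set against the 402 reads of exactly the annotated mature sequence, they make up 4.96% of both (interval 3.10% to 7.49%). They came from 6 libraries, 10 of them from male prepupae of D. melanogaster in pool SDY1 and 6 from its female larvae. mir-283 and mir-304 had 0 such reads, beside 2 and 1 reads of exactly their annotated mature sequence. Additions to those exact forms were thus not detectable at this depth. All forms of the 5p arm together gave 517 reads for mir-283 and 2 for mir-304, against 790 for mir-12. The difference in added bases between the hairpins was not tested.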

How the results depend on the processing

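Under no alternative but 3 did a cluster arm pass: the replicate block for stage in D. melanogaster males (2 arms), DESeq2 for D. yakuba minus D. melanogaster (1) and DESeq2 for stage by sex (1). The replicate block, run for the 3 stage comparisons alone, called no cluster arm over both sexes or across species. No library left out gave a call. Leaving out 1 library moved the neighbour ratio between −0.021 (p = 1 by exact permutation) and 2.21, and turned the log2 difference of these: miR-12-5p for stage over both sexes (−1.01 to 2.18), for stage across species (−0.14 to 1.69), for sex (−1.63 to 4.19), for D. yakuba minus D. melanogaster (−0.33 to 1.03) and for its stage by species term in D. simulans (−2.37 to 0.41), and miR-283-5p for sex (−1.97 to 0.26), for D. simulans minus D. melanogaster (−0.0078 to 1.43) and for its stage by species term in D. yakuba (−1.17 to 3.21). The causes were not tested. The stage by sex term could not be fitted without either female library, nor the stage by species term without the D. simulans or D. yakuba larvae. Libraries of 1423 to 5086 reads hold 2 to 37 reads of each neighbour, save the 241 miR-12-5p reads of the female larvae, and this limits the ratios of these libraries.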
